A study of Mus musculus with 24 samples.

Results

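The comparison described here is the step from 72 to 96 h of a differentiation course: mouse Lys-GFP-ER-HoxA9 cells cultured out of estradiol for 96 h, set against the same cells at 72 h. Its members were chosen by column name in the deposited count table, which gives 2 libraries at 96 h and 2 at 72 h, 4 of the 24 libraries in the series. The cells are a conditional myeloid progenitor line of C57Bl/6 strain that carries a lysozyme-GFP reporter and a fusion of the estrogen receptor with HoxA9. Before withdrawal they grew in serum medium with Stem Cell Factor and 0.5 uM beta-estradiol, and both groups share the reporter, the fusion and the strain. By the labels the 2 groups differ in the time out of estradiol. Whatever else goes with that time, such as time in culture, day of harvest or library batch, is not labelled and cannot be told apart from it. The labels name 1 cell line and do not say whether the libraries of a time came from separate cultures. The p-values therefore measure the spread between libraries of a time, pooled over all withdrawal times, which may be technical.

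HoxA9 is a homeobox transcription factor that holds myeloid progenitors in an immature, dividing state. When its activity ends, granulocyte precursors make their granule proteins in sequence: enzymes of the primary granules are transcribed first, in promyelocytes, and contents of the secondary and tertiary granules later, as the cells stop dividing. Type I interferon is a separate system in which a secreted ligand acts through the receptor Ifnar1 and Ifnar2 and factors such as Stat2 and Irf9 to switch on a large antiviral gene set, and NF-kB is a factor that drives inflammatory cytokines.

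Messenger RNA was selected with oligo-dT beads and sequenced with a strand-preserving kit. The 96 h libraries held 41378068 (library A) and 39278516 (library B) counts in genes, against 41844071 and 42748609 at 72 h, and all 24 libraries held 36661334 to 49601719. Levels below are in CPM, counts scaled to a common library total, with library sizes corrected by TMM factors, always given as library A and then B, and they are not corrected for gene length, so they compare libraries and not genes. The 2 libraries at 96 h differed from each other more than those of any other time, with a chi-square of 61.28 per gene against a range of 6.31 to 61.28 over the 10 times, and 31.84 at 72 h. Across 8711 genes the difference of 96 h library A from B correlated with the change from 72 to 120 h (Pearson r = 0.58, a description, since genes are not independent), and library A lay further along the course. At 72 h the difference of library A from B likewise correlated with the change from 48 to 96 h (Pearson r = 0.71), so A was the further along at both times. On the line from 72 h to 120 h, A sat at 0.54 and B at 0.42 of the way. Transcripts of mitochondrial origin took 1.03% and 0.976% of counts at 96 h, against 1.09% and 1.14% at 72 h, and 6.48% and 6.31% of reads at 96 h lay outside annotated genes, against 5.82% and 5.89% at 72 h.

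Between 72 and 96 h levels of most primary granule, DNA replication and ribosome-making genes called were lower, stem and progenitor genes moved both ways, and the cells gained secondary and tertiary granule, interferon-stimulated, inflammatory and phagocyte transcripts. Of 14615 genes tested, edgeR's quasi-likelihood test called 7846 changed at an adjusted p under 0.05, which is 53.7% of all. Of these, 3976 were higher at 96 h (27.2%) and 3870 lower (26.5%), and the count of members called in a list has to be read against these shares. By at least 2-fold, 1479 genes were higher (10.1%) and 934 lower (6.39%). The libraries of the 2 times did not overlap for 11208 genes (76.7%), of which 7834 were also called (53.6% of all tested). The median log2 change of all genes was −0.02. In bulk RNA, fewer cells of a type and less RNA per cell cannot be told apart, and this holds for every result below.

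**Figure D1:**
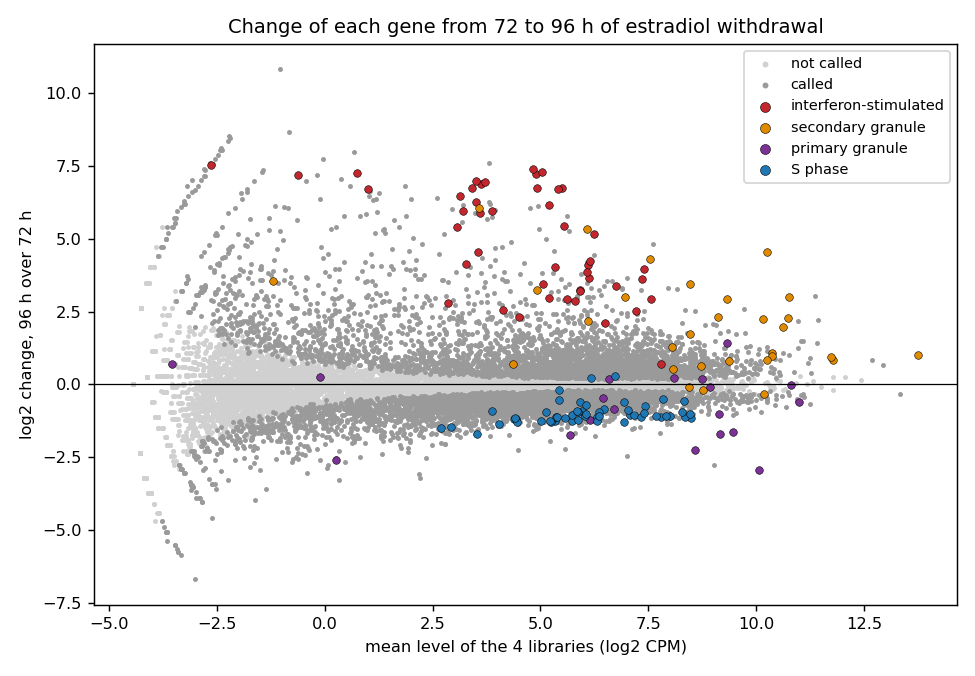
Log2 change of each of 14615 genes, 96 h over 72 h (vertical axis), against its mean level in the 4 libraries in log2 CPM (horizontal axis); dark grey points were called. The 46 interferon-stimulated genes all lie above 0, and 51 of the 54 S phase genes were called lower.

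The interferon-stimulated genes gave the highest median of the 49 lists examined. All 46 of them were measured and all 46 were called higher, with a median log2 change of 4.86 (4.39 with any gene that has 0 reads at a time set at a floor of 3 reads over that pair), against −0.02 for all genes. Their summed level was 12879 and 7128 CPM at 96 h, against 789 and 698 CPM at 72 h. Leaving out either library of a time kept 45 or 46 of them higher. At 96 h library A exceeded library B for all 46, by a median of 1.82-fold, so the size of the change at 96 h depended on the library while the direction did not.

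Among the effectors, Oas3, an oligoadenylate synthetase that activates RNA decay in infected cells, had 487 and 261 CPM at 96 h, against 2.64 and 1.83 CPM at 72 h. Its log2 change was 7.39 ± 0.27 (SE, adjusted p = 9.61e-14). Rsad2 (viperin), an enzyme that makes an antiviral nucleotide, had 572 and 276 CPM at 96 h, against 2.86 and 2.55 CPM at 72 h. Ifit1, which binds foreign RNA caps, had 519 and 239 CPM at 96 h, against 2.78 and 2.27 CPM at 72 h, and its log2 change was 7.23 ± 0.34 (SE, adjusted p = 2.41e-12). For each of these the lower 96 h library exceeded the higher 72 h library many times over. Usp18, which removes the Isg15 tag and damps receptor signalling, had 171 and 86.7 CPM at 96 h, against 1.12 and 0.89 CPM at 72 h. Isg15 itself, the ubiquitin-like tag, had 115 and 54.2 CPM at 96 h, against 1.07 and 0.82 CPM at 72 h. Oas2, Oasl1, Oasl2, Ifit3, Rtp4 and Slfn5 were the other interferon genes among the 12 highest changes (among called genes whose average over the 4 libraries reached 3 log2 CPM), with log2 changes of 6.76, 6.88, 6.76, 6.74, 6.96 and 6.70. The highest of the 12 was Acod1, the enzyme that makes itaconate in activated phagocytes, with 307 and 103 CPM at 96 h, against 0.999 and 1.12 CPM at 72 h. Its log2 change was 7.59 ± 0.41 (SE, adjusted p = 1.37e-11), and library A at 96 h stood well above library B.

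Promoter sequence is shown for the 3 interferon-stimulated genes with the largest changes among those that averaged 3 log2 CPM or more and had a promoter window. A short motif, the interferon-stimulated response element, is known from promoters that respond to type I interferon. The letters searched were GAAA, any 2 bases and GAAA again, on both strands of the 250 bases before each gene's RefSeq start (build GRCm38.p6). Capitals mark the matches, in which TTTC stands for GAAA where the match lies on the other strand.
Oas3, chr5:120777660-120777909, minus strand: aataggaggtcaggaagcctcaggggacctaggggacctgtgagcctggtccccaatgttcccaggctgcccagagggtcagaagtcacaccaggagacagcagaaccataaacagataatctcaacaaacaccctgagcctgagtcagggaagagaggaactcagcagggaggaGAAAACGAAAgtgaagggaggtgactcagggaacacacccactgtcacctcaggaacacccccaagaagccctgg
Rsad2, chr12:26456453-26456702, minus strand: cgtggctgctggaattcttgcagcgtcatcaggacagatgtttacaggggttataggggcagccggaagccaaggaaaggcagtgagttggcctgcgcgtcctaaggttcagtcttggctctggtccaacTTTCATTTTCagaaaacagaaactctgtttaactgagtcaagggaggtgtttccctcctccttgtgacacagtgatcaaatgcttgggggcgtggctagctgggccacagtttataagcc
Ifit1, chr19:34640639-34640888, plus strand: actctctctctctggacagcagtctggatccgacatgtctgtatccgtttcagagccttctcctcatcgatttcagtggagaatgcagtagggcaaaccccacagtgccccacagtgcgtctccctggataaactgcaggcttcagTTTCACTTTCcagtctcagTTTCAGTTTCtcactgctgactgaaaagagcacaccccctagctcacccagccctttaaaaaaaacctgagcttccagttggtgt
Of 46 interferon-stimulated genes, 35 matched the promoter table, with 42 windows, of which 21 (50%) held the motif. The same letters were in 978 of 32851 windows of all genes (2.98%) and in 382 of 12919 windows of the genes tested (2.96%), and in 1 of 51 S phase windows and 2 of 24 secondary granule windows. Ifit1 held 2 matches. A match is a description of the letters and not a shown binding site. The share in the list follows from which genes are listed and from their sequence, and not from the levels measured here. All 46 were called higher, so the list has no uncalled members to set beside them, and a link of motif to change was not tested.

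Genes for the ligands, receptors, signalling factors and sensors of this system were also looked at. Of those below, Stat2, Irf9, Irf7, Ddx58 and Ifih1 are members of the interferon-stimulated list, so their rise is already counted there. Of 20 interferon ligand genes in the table, 2 had any read at 96 h and 0 had any at 72 h. Ifnb1, interferon beta, had 28 and 14 reads at 96 h, against 0 and 0 at 72 h, at least 17.5-fold higher by a floor of 3 reads over the 72 h pair. The other, Ifnz, had 2 and 0 reads at 96 h. Of the receptor pair, Ifnar1 had 180.2 and 151 CPM at 96 h, against 100.4 and 86 CPM at 72 h (log2 0.83). Ifnar2 had 126 and 112 CPM at 96 h, against 79 and 73 CPM at 72 h (log2 0.65). Both were called higher. Stat2, a signalling factor below the receptor, had 436 and 288 CPM at 96 h, against 70.5 and 56.1 CPM at 72 h, a log2 change of 2.52 ± 0.15 (SE, adjusted p = 3.58e-11). Irf9, its DNA-binding partner, had 215 and 154 CPM at 96 h, against 21.7 and 18.1 CPM at 72 h, a change of 3.21 ± 0.13 (SE, adjusted p = 7.25e-13). Both lay apart between the times. Irf7, which amplifies interferon transcription, had 405 and 223 CPM at 96 h, against 4.9 and 3.96 CPM at 72 h. Its log2 change was 6.15 ± 0.24 (SE, adjusted p = 2.71e-13), and at 120 h its mean was 1231 CPM. Of the cytosolic RNA sensors, Ddx58 (RIG-I) had 405 and 224 CPM at 96 h, against 19 and 14.3 CPM at 72 h. Ifih1 (MDA5) had 244 and 136 CPM at 96 h, against 21 and 19.3 CPM at 72 h. Both were called higher. Their adaptor Mavs had 34.3 and 35.8 CPM at 96 h, against 36.2 and 32.8 CPM at 72 h, and it was not called, with overlapping libraries.

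**Figure D2:**
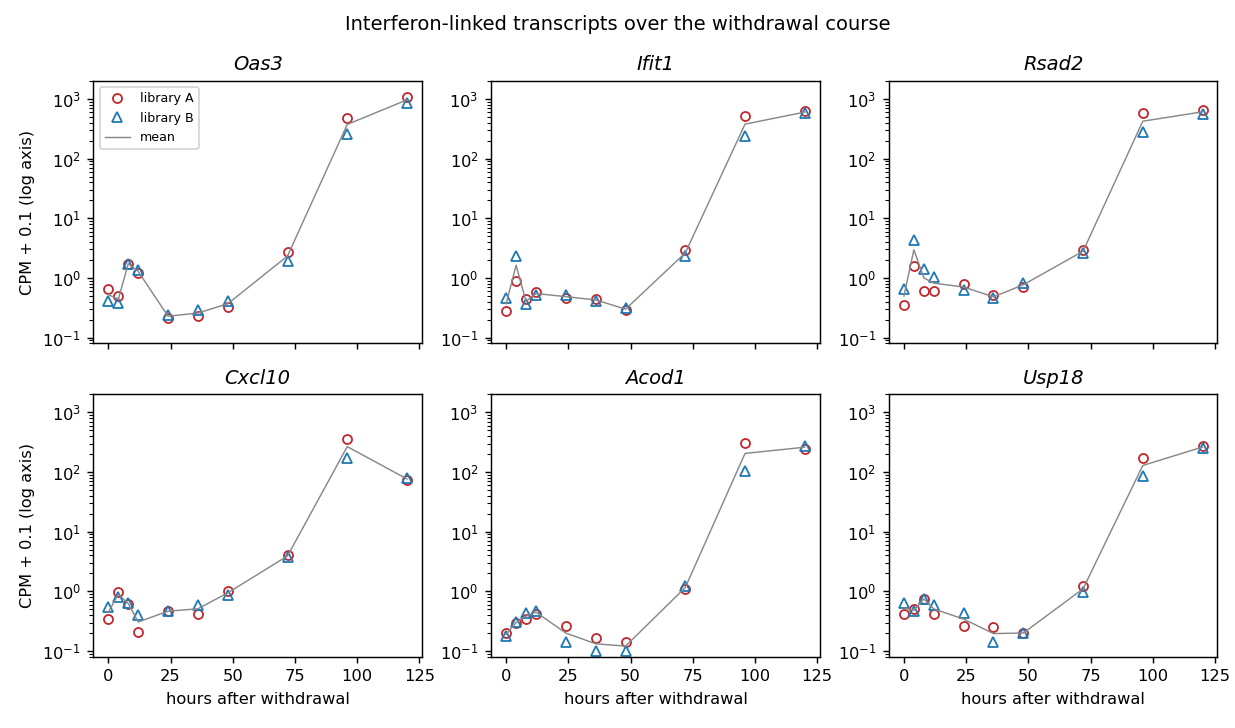
CPM plus 0.1 on a log axis over 10 times of withdrawal for 6 interferon-linked genes; points are libraries A and B, and lines join the means. All 6 stand above their 72 h libraries in both 96 h libraries, and Cxcl10 alone of the 6 has a lower mean at 120 h than at 96 h.

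Inflammatory genes rose over the same day. All 22 measured genes of the NF-kB list were called higher (median log2 1.70), as were 26 of 28 chemokines and cytokines (2.97), 26 of 30 Toll-like receptors and adaptors (0.95) and 25 of 31 immediate early and AP-1 genes (1.75), while 2 immediate early genes were lower. Tnf, the inflammatory cytokine, had 82.5 and 48 CPM at 96 h, against 6.21 and 4.94 CPM at 72 h, a log2 change of 3.55 ± 0.20 (SE, adjusted p = 2.28e-11). Cxcl10, a chemokine that interferon also induces, had 364 and 169.7 CPM at 96 h, against 4.02 and 3.63 CPM at 72 h, with a mean of 76.6 CPM at 120 h. Il1b had 49.4 and 17.4 CPM at 96 h, against 2.05 and 2.58 CPM at 72 h. Ccl4 had 91.5 and 47.7 CPM at 96 h, against 3.88 and 3.3 CPM at 72 h. None of these had overlapping libraries, although at 96 h library A stood above B for each. The NF-kB inhibitors moved with them: Tnfaip3 (A20) had 216 and 117 CPM at 96 h, against 24.2 and 17.8 CPM at 72 h. Its partner Tnip3 had 28.9 and 9.36 CPM at 96 h, against 0.262 and 0.164 CPM at 72 h. Relb, an NF-kB subunit, had 90.8 and 50.3 CPM at 96 h, against 10.5 and 7.84 CPM at 72 h, with a log2 change of 2.94 ± 0.20 (SE, adjusted p = 3.76e-10). Tlr2, the lipoprotein receptor, had 1229 and 611 CPM at 96 h, against 104 and 85.6 CPM at 72 h. Cd14, the co-receptor for endotoxin, had 534 and 238 CPM at 96 h, against 43.5 and 35.9 CPM at 72 h. The endosomal receptors Tlr9 and Tlr13 changed by 2.44 and 2.26 on the log2 scale. Of the AP-1 and immediate early group, Atf3 had 28.1 and 18.8 CPM at 96 h, against 0.928 and 0.515 CPM at 72 h. Egr1 had 21.1 and 11.5 CPM at 96 h, against 0.547 and 0.258 CPM at 72 h. Cd274 (PD-L1), listed with the immunoregulatory receptors, had 57.9 and 32.9 CPM at 96 h, against 4.35 and 3.54 CPM at 72 h. Spry2, an inhibitor of growth factor signalling, was the immediate early gene with the largest fall, at 2.92 and 4.07 CPM at 96 h, against 8.02 and 9.83 CPM at 72 h.

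Granule genes split by class. Of 30 measured secondary granule genes 27 rose and 1 fell (median log2 1.84), and of 37 tertiary granule and mature neutrophil genes 35 rose and 1 fell (2.36), while of 19 primary granule genes 11 fell and 1 rose (−0.60), against −0.02 for all genes. Scaling by RLE factors or DESeq2 called up to 4 primary granule genes higher, as against 1. The secondary list summed to 72261 and 60212 CPM at 96 h, against 26854 and 23072 CPM at 72 h. The primary list summed to 7647 and 7962 CPM at 96 h, against 12732 and 14246 CPM at 72 h.

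Ltf, lactoferrin, the iron-binding protein of secondary granules (mm10, chr9:111019271-111042767, plus strand), had 6457 and 5703 CPM at 96 h, against 354 and 166 CPM at 72 h. Its log2 change was 4.55 ± 0.25 (SE, adjusted p = 2.28e-11), and the higher 72 h library lay far under the lower 96 h one. Ngp, a neutrophilic granule protein, had 5588 and 4478 CPM at 96 h, against 788 and 465 CPM at 72 h. Camp, the cathelicidin antimicrobial peptide, had 380.0 and 332 CPM at 96 h, against 56.3 and 33.5 CPM at 72 h. Lcn2, which binds bacterial siderophores, had 4368 and 3287 CPM at 96 h, against 916 and 666 CPM at 72 h. Each lay apart between the times. Mmp8, the neutrophil collagenase, had 2062 and 1519.9 CPM at 96 h, against 287 and 188 CPM at 72 h. Mmp9, the gelatinase of tertiary granules, had 1196 and 956 CPM at 96 h, against 52.4 and 23.8 CPM at 72 h, a log2 change of 4.82 ± 0.28 (SE, adjusted p = 4.32e-11). Chil1 had 125 and 77.1 CPM at 96 h, against 2.09 and 0.937 CPM at 72 h. Retnlg, a resistin-like protein of neutrophils, had 148 and 101 CPM at 96 h, against 2.57 and 1.36 CPM at 72 h. The stefins Stfa2 and Stfa3, cysteine protease inhibitors, changed by 5.32 and 4.30 on the log2 scale. Reads that map to several places were tallied apart from genes (7.06% and 6.98% of reads at 96 h). Some reads of such near-identical family members may therefore be missing from these counts. The calcium-binding pair of the neutrophil cytosol also rose: S100a8 had 7054 and 5116 CPM at 96 h, against 1483 and 1132 CPM at 72 h. S100a9 had 8655 and 6765 CPM at 96 h, against 1132 and 732 CPM at 72 h. Cybb, the flavocytochrome subunit of the NADPH oxidase, had 3013 and 2092 CPM at 96 h, against 635 and 433 CPM at 72 h, a log2 change of 2.26 ± 0.20 (SE, adjusted p = 1.27e-08). Over the 9 oxidase subunits 8 rose and 0 fell, with a median of 0.69, and Ncf1, the p47phox subunit, had 2562 and 2378 CPM at 96 h, against 1342 and 1127 CPM at 72 h.

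Of the primary granule enzymes, Mpo, myeloperoxidase (mm10, chr11:87793581-87804413, plus strand), had 258 and 552 CPM at 96 h, against 2757 and 3414 CPM at 72 h. Its log2 change of −2.93 ± 0.24 (SE, adjusted p = 7.01e-09) was the most negative of the 12 genes named by size, and the 96 h libraries were unequal, with B above A. Ctsg, cathepsin G, had 146 and 212 CPM at 96 h, against 724 and 987 CPM at 72 h. Elane, neutrophil elastase, had 19.1 and 39 CPM at 96 h, against 90.2 and 105 CPM at 72 h. Prtn3, proteinase 3, had 323 and 498 CPM at 96 h, against 1217 and 1305 CPM at 72 h. Ms4a3, a progenitor membrane protein, had 274 and 365 CPM at 96 h, against 943 and 1119 CPM at 72 h. Library B exceeded A at both times for each of these 5, and for each the times did not overlap. Ctsc, cathepsin C, which activates the serine proteases of these granules, went the other way, at 1318 and 834 CPM at 96 h, against 422 and 374 CPM at 72 h, a log2 change of 1.44 ± 0.15 (SE, adjusted p = 1.23e-07). Lta4h, which makes leukotriene B4, was the secondary granule list's single lower member, at 984 and 1102 CPM at 96 h, against 1297 and 1326 CPM at 72 h; its adjusted p was 0.0559 without 96 h library A. Lyz2, lysozyme M, had at most 0.0895 CPM in any of the 4 libraries and was not called.

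**Figure D3:**
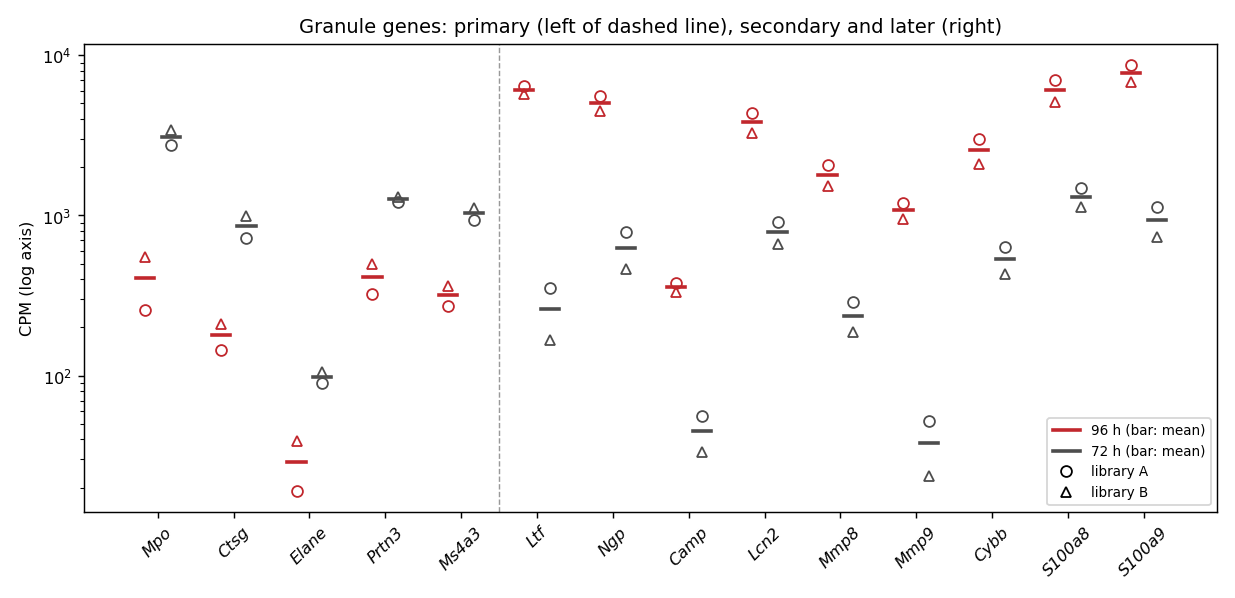
CPM on a log axis of 5 primary granule genes and 9 later granule or cytosolic genes, 96 h left of 72 h; circles and triangles are libraries A and B, and bars their mean. The 5 primary granule genes lie lower at 96 h in both libraries, and the 9 others higher in both.

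Genes for sensing, adhesion and movement rose with them. Of 23 chemoattractant and chemokine receptors 22 rose and 1 fell (median log2 1.59), of 27 Fc and immunoregulatory receptors 25 rose and 1 fell (1.0), of 26 adhesion genes 21 rose and 3 fell (0.78), and of 42 actin genes 35 rose and 0 fell (0.60). Fpr1 and Fpr2, receptors for bacterial formyl peptides, both rose. Fpr1 had 444 and 216 CPM at 96 h, against 11.1 and 5.97 CPM at 72 h. Fpr2 had 479 and 250.4 CPM at 96 h, against 21 and 12.8 CPM at 72 h. C5ar1, the complement C5a receptor, had 317 and 201 CPM at 96 h, against 33.9 and 20.5 CPM at 72 h. These 3 lay apart between the times. Cxcr2, a chemokine receptor of mature neutrophils, had 208 and 195 CPM at 96 h, against 98 and 74.3 CPM at 72 h. Csf3r, the G-CSF receptor, had 358 and 399 CPM at 96 h, against 220.2 and 177 CPM at 72 h. Itgam (CD11b), an integrin of myeloid cells, had 3185 and 3052 CPM at 96 h, against 1479 and 1126 CPM at 72 h, a log2 change of 1.26 ± 0.14 (SE, adjusted p = 2.35e-07). Cd177, a surface protein of neutrophils, had 101 and 89.9 CPM at 96 h, against 13.2 and 6.93 CPM at 72 h. Itgb2l, a beta integrin-like protein, had 404 and 368 CPM at 96 h, against 51.3 and 26.1 CPM at 72 h. Fcgr1, the high-affinity IgG receptor, had 165 and 110.3 CPM at 96 h, against 19.8 and 18.1 CPM at 72 h. Pecam1, an adhesion molecule, fell, to 70.9 and 101 CPM at 96 h, against 234 and 252 CPM at 72 h. In the chemoattractant list S1pr3, a sphingosine phosphate receptor, was the receptor that fell, at 0.955 and 1.74 CPM at 96 h, against 3.93 and 5.1 CPM at 72 h. Plek, the pleckstrin of activated phagocytes, had 1339 and 808 CPM at 96 h, against 261 and 243 CPM at 72 h, a log2 change of 2.09. The cytokine receptor list held 26 higher and 1 lower of 35, and Csf1r, the receptor for M-CSF, had 1415 and 833 CPM at 96 h, against 300.2 and 243 CPM at 72 h.

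Transcription factors moved both ways. Of 47 myeloid transcription factors 25 rose and 11 fell (median log2 0.48). Cebpa, which starts the granulocyte programme, had 39.2 and 48.1 CPM at 96 h, against 84.1 and 88.7 CPM at 72 h, a log2 change of −0.98 ± 0.10 (SE, adjusted p = 1.1e-07). Gfi1, a repressor needed for neutrophil commitment, had 74.7 and 108 CPM at 96 h, against 172 and 193 CPM at 72 h. Myb, which keeps progenitors cycling, had 126 and 183 CPM at 96 h, against 372 and 417 CPM at 72 h. Myc had 45.8 and 54.6 CPM at 96 h, against 91 and 118 CPM at 72 h. All 4 were lower in both 96 h libraries. Spi1 (PU.1), a driver of myeloid fate, rose, with 527 and 496 CPM at 96 h, against 374 and 347 CPM at 72 h. Klf4, a monocyte-linked factor, had 26 and 16.7 CPM at 96 h, against 4.5 and 3.37 CPM at 72 h. Cebpe, which controls secondary granule genes, had 178 and 202 CPM at 96 h, against 177 and 163 CPM at 72 h, a log2 change of 0.16 ± 0.14 (SE, adjusted p = 0.34). Irf8, which favours monocytes, had 77.5 and 72.7 CPM at 96 h, against 71.6 and 63.9 CPM at 72 h, a log2 change of 0.15 ± 0.10 (SE, adjusted p = 0.205), and neither of these 2 was called, with both 96 h libraries only just above those of 72 h. Of 27 stem and progenitor genes 12 fell and 9 rose (−0.56), beside the 26.5% and 27.2% of all genes given above. Kit, the receptor for the Stem Cell Factor in the medium, had 141 and 184 CPM at 96 h, against 251 and 277 CPM at 72 h. Cd34 had 75.2 and 88.2 CPM at 96 h, against 233 and 241 CPM at 72 h, a log2 change of −1.54 ± 0.10 (SE, adjusted p = 1.07e-10). Among those that rose, Calcrl, a receptor subunit for adrenomedullin, had 46.2 and 29.4 CPM at 96 h, against 14.5 and 12.4 CPM at 72 h, a log2 change of 1.49 ± 0.20 (SE, adjusted p = 2.68e-06). Hmga2, a chromatin protein of immature cells, had 9.43 and 7.44 CPM at 96 h, against 4.02 and 5.64 CPM at 72 h. Flt3, a progenitor cytokine receptor, had 8.74 and 13 CPM at 96 h, against 6.42 and 6.18 CPM at 72 h, and its adjusted p was 0.0692 without 96 h library B. The times did not overlap for these 3. Hoxa9 had 599 and 602 CPM at 96 h, against 435 and 372 CPM at 72 h. Esr1 had 163 and 156 CPM at 96 h, against 122 and 106 CPM at 72 h. Both were called higher, and whether reads of the ER-HoxA9 fusion enter these counts is not given in the sources used here. The table's 1 feature with an identifier of another kind, which the labels do not name, had 1422 and 1247 CPM at 96 h, against 697 and 536 CPM at 72 h.

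Markers of other cell types were measured beside these groups. All 10 neutrophil markers rose, and their sum was 30930 and 24620 CPM at 96 h, against 4422 and 2969 CPM at 72 h. Of the other lineages, 5 markers of erythroid cells (the globins Hba-a1, Hba-a2, Hbb-bs and Hbb-bt, and Alas2) and the T and NK cell markers Cd3e, Cd8a and Ncr1 were at 0 in all 4 libraries, as were the mast cell proteases Mcpt4 and Tpsab1. The erythroid markers summed to 202 and 203 CPM at 96 h, against 382 and 513 CPM at 72 h, nearly all of it Tfrc, the transferrin receptor of dividing cells. The T and NK cell markers summed to 0.507 and 0.959 CPM at 96 h, against 2.62 and 3.84 CPM at 72 h. Most of that was 1 gene, Nkg7, with 0.269 and 0.698 CPM at 96 h, against 2.36 and 3.61 CPM at 72 h. B cell markers summed to 182 and 221 CPM at 96 h, against 213 and 199 CPM at 72 h, with 0 higher and 1 lower of 11 tested. The 7 megakaryocyte markers summed to 16.1 and 19.7 CPM at 96 h, against 28.8 and 25.6 CPM at 72 h. That fall lay in Itga2b, with 6.534 and 8.983 CPM at 96 h, against 21.7 and 20.02 CPM at 72 h. Of the 7, only Itga2b was called lower and 2 were called higher. Vwf had 3.998 and 3.663 CPM at 96 h, against 0.6901 and 0.4449 CPM at 72 h. The 9 stem and progenitor markers summed to 371 and 492 CPM at 96 h, against 889 and 970 CPM at 72 h. Monocyte markers summed to 4693 and 3604 CPM at 96 h, against 2396 and 2256 CPM at 72 h, with 6 of 8 called higher. The part of changed cell proportions in any gene group was not tested.

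Monocyte, macrophage and antigen-presentation transcripts also rose. Of 23 genes of the monocyte list 20 rose and 1 fell (median log2 1.79), of 21 macrophage genes 19 rose and 0 fell (3.06, or 2.54 with genes without reads in a group at their floor), and of 13 dendritic cell and MHC class II genes 7 rose and 0 fell (2.71, or 1.01 with such genes at their floor). Gpnmb, a membrane glycoprotein of lysosome-rich macrophages, had 392 and 337 CPM at 96 h, against 6.66 and 6.42 CPM at 72 h, a log2 change of 5.80 ± 0.15 (SE, adjusted p = 1.49e-15). Clec4n (dectin-2), a receptor for fungal mannans, had 335 and 132 CPM at 96 h, against 4.21 and 2.86 CPM at 72 h. Clec4n is counted in the tertiary granule and mature neutrophil list. Axl, a receptor for dying cells, had 67.1 and 44.7 CPM at 96 h, against 4.57 and 3.89 CPM at 72 h. Their libraries did not overlap. Cd74, the invariant chain of MHC class II, had 84.7 and 32.5 CPM at 96 h, against 0.928 and 0.468 CPM at 72 h, with library A above B at 96 h. Adgre1 (F4/80) took most of the macrophage marker sum, with 604 and 511 CPM at 96 h, against 286 and 251 CPM at 72 h, and the macrophage markers C1qa and C1qc had 0 reads in both 72 h libraries, while Cd163 and Spic were under 0.1 CPM in all 4 libraries. The macrophage markers summed to 632 and 528 CPM at 96 h, against 287 and 252 CPM at 72 h. The dendritic markers summed to 121 and 61.6 CPM at 96 h, against 11.2 and 10.0 CPM at 72 h. Most of the dendritic sum at 96 h was Cd74 and Itgax, and Itgax had 26.3 and 15.6 CPM at 96 h. The dendritic markers Siglech, Zbtb46 and Xcr1 had at most 0.262 CPM in any of the 4 libraries. The class II chain H2-Aa had 0.686 and 0.233 CPM at 96 h.

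Eosinophil and mast cell genes fell. Of 9 eosinophil genes 5 fell and 1 rose (median log2 −1.32), and of 8 mast cell and basophil genes 6 fell and 2 rose (−1.03). Prg2 and Prg3, the major basic proteins of eosinophil granules, were among the 12 lowest changes: Prg2 had 193 and 209.9 CPM at 96 h, against 1298 and 1440.1 CPM at 72 h, a log2 change of −2.76 ± 0.14 (SE, adjusted p = 4.21e-12), and Prg3 had 49.3 and 61.5 CPM at 96 h, against 261 and 341 CPM at 72 h. Epx, eosinophil peroxidase, had 1.43 and 1.54 CPM at 96 h, against 14.2 and 13.7 CPM at 72 h. Cpa3, the mast cell carboxypeptidase, had 9.34 and 11.3 CPM at 96 h, against 39.5 and 59.4 CPM at 72 h, a log2 change of −2.26 ± 0.16 (SE, adjusted p = 7.79e-10). All 4 genes were lower in both 96 h libraries than in either 72 h library. Ear2, an eosinophil-associated ribonuclease, was the 1 eosinophil gene that rose, with 113 and 90.4 CPM at 96 h, against 50.8 and 43.4 CPM at 72 h. The 2 genes of the mast cell and basophil list that rose were Ifitm1, which interferon also induces, and Il1rl1, the receptor for interleukin-33. Ifitm1 had 46.6 and 37.8 CPM at 96 h, against 8.04 and 6.42 CPM at 72 h. Il1rl1 had 7.1 and 6.83 CPM at 96 h, against 1.78 and 0.913 CPM at 72 h. The eosinophil markers summed to 484 and 509 CPM at 96 h, against 1791 and 1990.0 CPM at 72 h. The mast cell and basophil markers summed to 71.0 and 72.0 CPM at 96 h, against 149 and 178 CPM at 72 h.

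**Figure D4:**
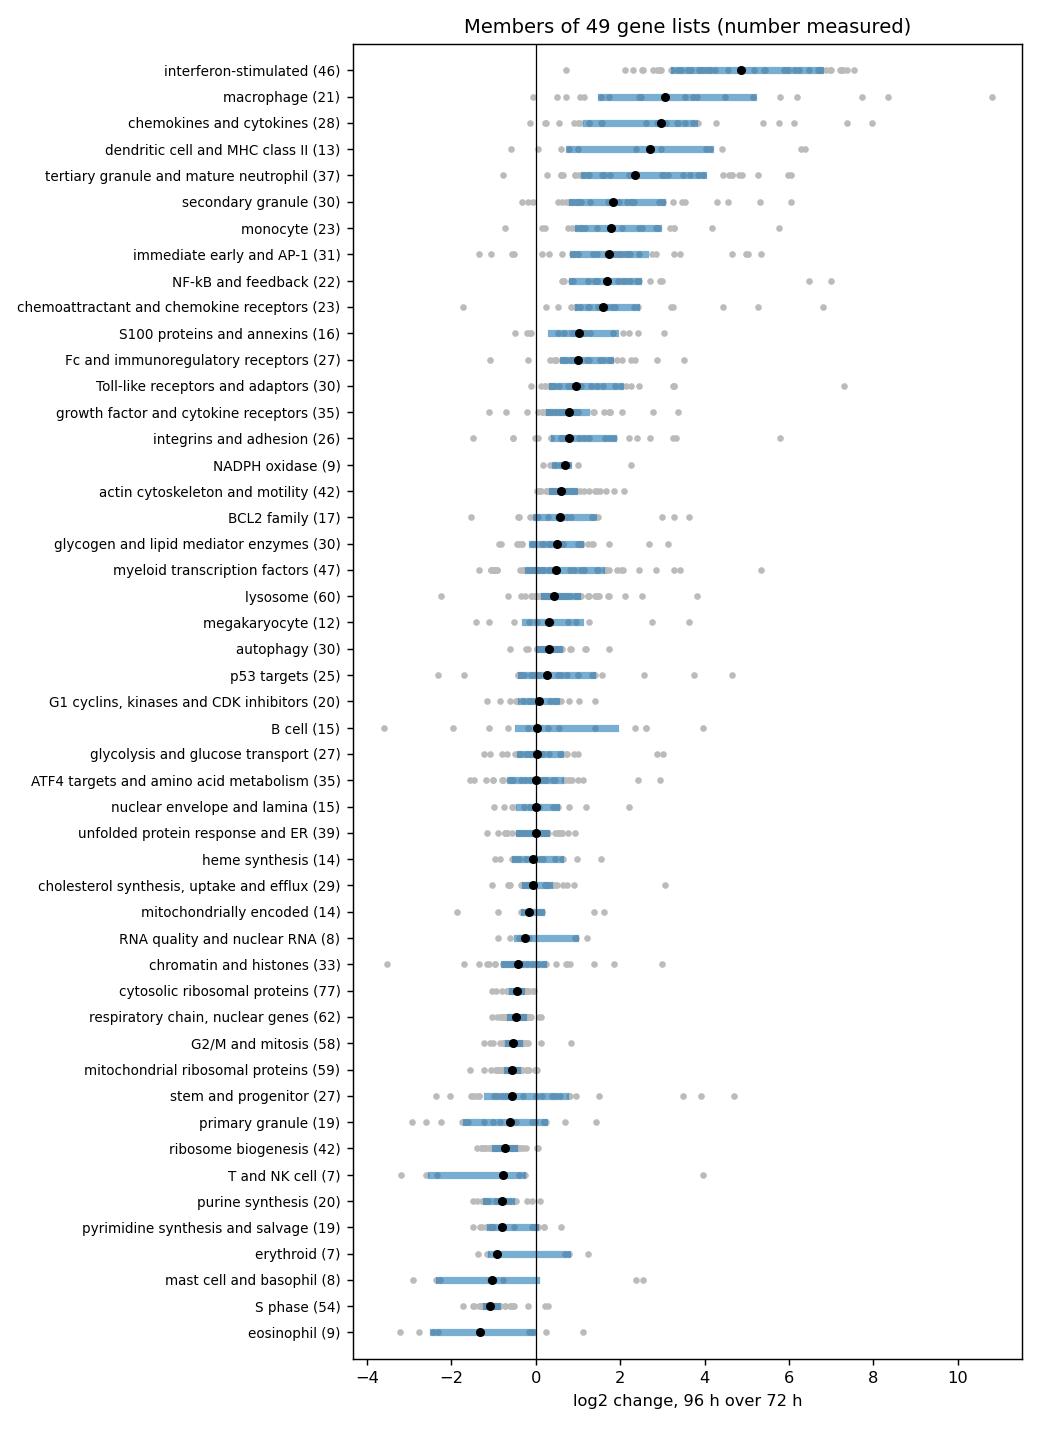
Log2 change, 96 h over 72 h, of every measured member of 49 gene lists (grey points), with the median (black) and the range between the quartiles (blue); the number measured is in brackets. The interferon-stimulated list has the highest median at 4.86 and the eosinophil list the lowest at −1.32.

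Cell cycle genes fell, those of DNA replication the most. Of 54 S phase genes 51 fell and 0 rose, with a median log2 change of −1.09, and of 58 G2/M and mitosis genes 53 fell and 1 rose, with a median of −0.55. Orc1, which marks replication origins, had 3.97 and 5.26 CPM at 96 h, against 11.9 and 13.5 CPM at 72 h, a log2 change of −1.46 ± 0.14 (SE, adjusted p = 6.25e-08). Gins1, a part of the replicative helicase, had 9.13 and 11.6 CPM at 96 h, against 24.3 and 28.5 CPM at 72 h. Ung, which removes uracil from DNA, had 5.22 and 7.65 CPM at 96 h, against 19.1 and 23.2 CPM at 72 h. Both libraries at 96 h were under both at 72 h for each. Mad2l1, of the spindle checkpoint, had 65.6 and 73.2 CPM at 96 h, against 137 and 143 CPM at 72 h. Mybl2, which drives mitotic genes, had 20.1 and 28.3 CPM at 96 h, against 51.6 and 51.4 CPM at 72 h. Mki67 (Ki-67), the common proliferation marker, fell by less: it had 582 and 678 CPM at 96 h, against 793 and 783 CPM at 72 h, a log2 change of −0.32 ± 0.13 (SE, adjusted p = 0.0382), and the call was lost under RLE scaling, with DESeq2 and in 3 of the 4 settings that leave out a library, at adjusted p from 0.0627 to 0.275. Among G1 genes, of 20 measured, 7 rose and 6 fell. Cdkn1a (p21), an inhibitor of cyclin-dependent kinases, had 33.1 and 19.6 CPM at 96 h, against 9.76 and 10.1 CPM at 72 h. Cdkn2d (p19), another such inhibitor, had 91 and 95.2 CPM at 96 h, against 65.3 and 57.8 CPM at 72 h. Ccnd3, a D cyclin, had 495 and 539 CPM at 96 h, against 327 and 269 CPM at 72 h. Cdk6 and Cdk4, which pair with D cyclins, both fell. Cdk6 had 156 and 189 CPM at 96 h, against 336 and 435 CPM at 72 h. Cdk4 had 105 and 120.2 CPM at 96 h, against 188 and 218 CPM at 72 h. Pttg1 (securin) was the single mitotic gene called higher, with 29.8 and 18.5 CPM at 96 h, against 13.4 and 13.7 CPM at 72 h.

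Nuclear genes for making ribosomes, nucleotides and mitochondria were mostly lower. Of 42 ribosome biogenesis genes 40 fell and 0 rose (median log2 −0.73), of 20 purine synthesis genes 17 fell and 0 rose (−0.81), and of 19 pyrimidine genes 11 fell and 1 rose (−0.81). Dkc1, the pseudouridine synthase of ribosomal RNA, had 35.2 and 39 CPM at 96 h, against 82 and 113 CPM at 72 h, a log2 change of −1.39 ± 0.13 (SE, adjusted p = 4.99e-08), and Nop56, of the box C/D particles, had 38 and 45.5 CPM at 96 h, against 86.1 and 109 CPM at 72 h. Impdh2, which commits purines to guanine nucleotides, had 73 and 88.3 CPM at 96 h, against 174 and 219 CPM at 72 h. Dut, which clears dUTP, had 35.5 and 43.4 CPM at 96 h, against 100.3 and 123 CPM at 72 h. The 72 h libraries differed in this group, with B above A for each of the 4, and the times did not overlap. Of 77 cytosolic ribosomal protein genes 64 fell and 0 rose (−0.45), but 26 fell without 72 h library B. Rpl3 had 748 and 843 CPM at 96 h, against 1407 and 1651 CPM at 72 h. Mitochondrial ribosomal proteins gave 52 lower of 59 (−0.55) and nuclear respiratory chain genes 46 lower of 62 (−0.47), with 0 higher in both, and 35 and 31 lower at the fewest among the alternatives. Of 14 measured mitochondrially encoded genes 11 were not called, 1 fell and 2 rose. Those that rose were both ribosomal RNAs: mt-Rnr1 had 617 and 414 CPM at 96 h, against 157 and 176 CPM at 72 h. mt-Rnr2 had 537 and 377 CPM at 96 h, against 158 and 193 CPM at 72 h. Among nuclear and quality-linked RNAs, Malat1 had 108 and 88.4 CPM at 96 h, against 50.3 and 52.8 CPM at 72 h. Neat1 had 185 and 251 CPM at 96 h, against 126 and 98.7 CPM at 72 h. Both were called higher, while Gas5, the host of small nucleolar RNAs, had 79.8 and 78.6 CPM at 96 h, against 128 and 166 CPM at 72 h.

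Metabolic and stress genes gave mixed lists. Glycolysis genes gave 9 higher and 9 lower of 27, cholesterol genes 8 and 7 of 29, heme genes 5 and 6 of 14, unfolded protein response genes 10 and 12 of 39 and ATF4 targets 11 and 13 of 35, with medians from −0.07 to 0.03 on the log2 scale. Within glycolysis the glucose transporter Slc2a3 rose, with 203 and 188 CPM at 96 h, against 30.6 and 18.1 CPM at 72 h, and the lactate transporter Slc16a1 fell, with 20.6 and 25.4 CPM at 96 h, against 45.2 and 62.3 CPM at 72 h. Abca1, the cholesterol exporter, had 54.1 and 26.3 CPM at 96 h, against 4.85 and 4.8 CPM at 72 h, while Acat2, of cholesterol synthesis, had 21.1 and 23.2 CPM at 96 h, against 42.6 and 48.9 CPM at 72 h. Psat1, of serine synthesis, had 90.4 and 101 CPM at 96 h, against 234 and 294 CPM at 72 h. Slc7a11, which imports cystine, had 263 and 119.9 CPM at 96 h, against 38 and 33.4 CPM at 72 h. The groups did not overlap for any of these 6 genes. Hmox1, heme oxygenase, had 78.8 and 63 CPM at 96 h, against 27.1 and 21.1 CPM at 72 h. Without 96 h library A, 6 genes were higher in each of the unfolded protein response and ATF4 lists, and without 72 h library B, 4 cholesterol genes were lower. Of 60 lysosome genes 40 rose and 4 fell (0.44) and of 30 autophagy genes 19 rose and 1 fell (0.32). Ctss, cathepsin S, had 496 and 324 CPM at 96 h, against 75.7 and 66.8 CPM at 72 h. Sqstm1 (p62), the autophagy receptor, had 512 and 379 CPM at 96 h, against 205 and 193 CPM at 72 h. Of 17 BCL2 family genes 11 rose and 3 fell (0.58): Mcl1, which protects neutrophils from apoptosis, had 1043 and 734 CPM at 96 h, against 331 and 307 CPM at 72 h. Bcl2l11 (Bim), which promotes it, had 81.3 and 71.9 CPM at 96 h, against 31.7 and 28.4 CPM at 72 h. With RLE scaling, with only the compared libraries or without 72 h library B, 1 BCL2 family gene was lower. Of 25 p53 targets 13 rose and 6 fell (0.26), 3 of them without 72 h library B, and of 30 glycogen and lipid mediator genes 18 rose and 7 fell (0.50). Of 16 S100 proteins and annexins 12 rose and 1 fell, of 33 chromatin genes 7 rose and 18 fell (−0.41), and of 15 nuclear envelope genes 6 rose and 5 fell (0.01; 3 fell without 96 h library A). Padi4, which citrullinates histones in neutrophils, had 208 and 197 CPM at 96 h, against 33.1 and 17.5 CPM at 72 h, a log2 change of 3.0 ± 0.22 (SE, adjusted p = 1.45e-09).

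The day from 72 to 96 h differed from the days before and after it. The question is whether the size of each gene's change on this day departed from its change between 48 and 72 h or between 96 and 120 h; both tests share libraries with the main comparison. The change differed from that of the day before for 1974 genes (13.5%), with 843 more positive (5.77%) and 1131 more negative (7.74%), a count that dropped to 813 when 72 h library B was left out, to 1100 when A was left out and to 1141 with only the 3 times compared in the fit. It differed from that of the day after for 4687 genes (32.1%), with 2778 more positive (19%) and 1909 more negative (13.1%). Over the day before, 6429 genes (44%) were called, 3239 higher (22.2%) and 3190 lower (21.8%), and over the day after 6313 (43.2%), 3181 higher (21.8%) and 3132 lower (21.4%).

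Interferon-stimulated genes had a median log2 change of 2.06 from 48 to 72 h, 4.86 from 72 to 96 h and 0.78 from 96 to 120 h. The change differed from the day before in 34 of 46 and from the day after in 45 of 46. Rsad2 rose by 2.01 ± 0.52 (SE) the day before and Acod1 by 5.54 ± 1.19 (SE), on the log2 scale. The size for Acod1 is poorly fixed, since it had 0.0416 and 0 CPM at 48 h and 0.999 and 1.12 CPM at 72 h. Secondary granule genes had medians of 3.66, 1.84 and −0.67 over the 3 days, and differed from the day before in 17 of 30 and from the day after in 28 of 30. Ltf changed by 6.98 log2 from 48 to 72 h, 4.55 from 72 to 96 h and −0.32 from 96 to 120 h. S phase genes had medians of −0.17, −1.09 and −1.99, with 45 and 32 of 54 differing from the day before and the day after, and G2/M genes had medians of 0.08, −0.55 and −2.81, with 30 and 56 of 58 differing. Mki67 changed by 0.27, −0.32 and −3.20 over the 3 days. Eosinophil genes had medians of 0.44, −1.32 and −2.12: Prg2 changed by −0.10 from 48 to 72 h and −2.76 from 72 to 96 h. Macrophage genes had medians of 1.13, 3.06 and 3.74. Ribosome biogenesis genes had medians of −1.0, −0.73 and 0.08.

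**Figure D5:**
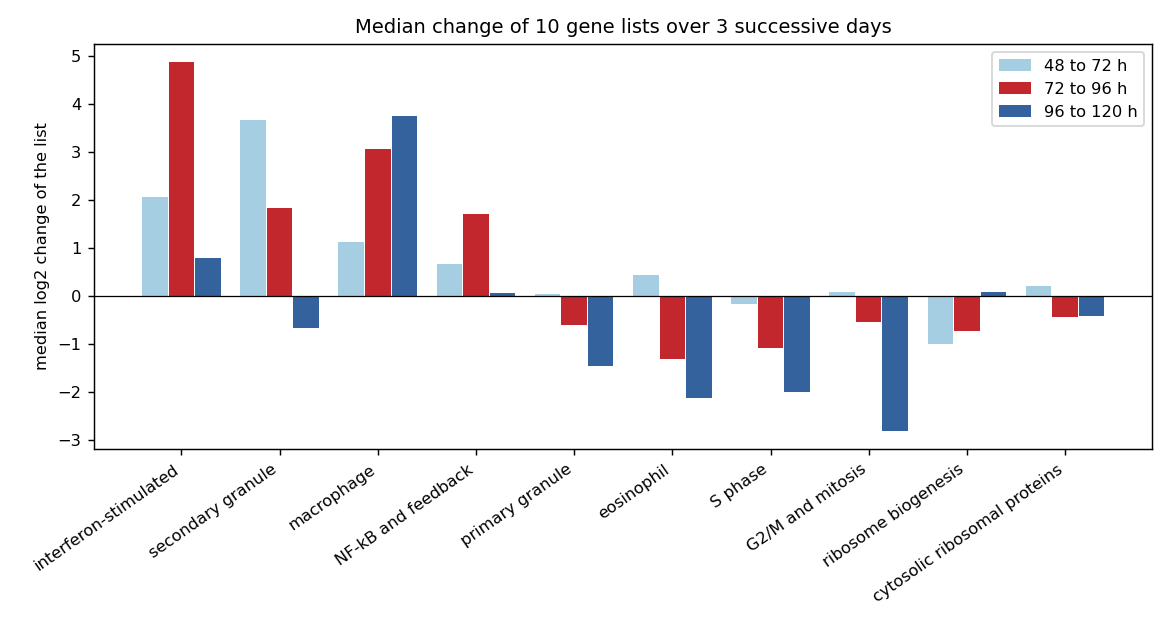
Median log2 change of 10 gene lists (bars, vertical axis from 0) from 48 to 72 h, 72 to 96 h and 96 to 120 h. The interferon-stimulated and NF-kB lists have their tallest bar at 72 to 96 h, and the G2/M list its deepest, −2.81, at 96 to 120 h.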

How the data were processed

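The authors deposited 1 table of unnormalized read counts, a line per gene and a column per library, per the file headers. The submitters' processing notes name STAR 2.4.2a and Picard, with mm10 as the genome. The counting program, its strand setting and the annotation are not given in the sources used here. Of 45323 lines, 4 name no gene and did not enter any fit or total. Symbols and positions came from GENCODE M21 (GRCm38), for 44671 identifiers. Column letters A and B name the libraries of a time and could be tied to a time but not to a replicate number.

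The 20 withdrawal libraries (10 times, 2 each) entered 1 model with a level per time in edgeR 4.0.16 (limma 3.58.1, R 4.3.3): TMM scaling, filterByExpr, which kept 14615 of 45319 genes, and a quasi-likelihood test of 96 h minus 72 h with Benjamini-Hochberg adjustment over all genes and 10 residual degrees of freedom. The threshold for a call was an adjusted p of 0.05. Standard errors are the log2 change divided by the square root of F. The same fit tested the change against the day before and the day after. DESeq2 1.42.0 was an alternative. The procedure was also run on simulated counts in which few genes changed, drawn with the fit's pooled spread. That run cannot show the error rate here, where 53.7% of genes were called and the spread was widest at 96 h. Depth was 36661334 to 49601719 counts a library.

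Gene names came from a rule: anchors of the system, the 12 largest changes each way among called genes averaging 3 log2 CPM or more whose libraries did not overlap, and up to 4 members of each list each way. Interferon receptors, Stat2, Irf9, Irf7, Ddx58, Ifih1, Mavs, Adgre1, the interferon ligand genes and the genes whose course over 3 days is given were chosen after their values were seen. The members, the 49 lists and the tests were chosen with earlier results of these data known. Promoter sequences are RefSeq's.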

Additional observations from a re-analysis of the deposited data

Results flagged for a closer look

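The log2 change from 72 to 96 h departed from that of the day before (48 to 72 h) in 1974 genes and from that of the day after (96 to 120 h) in 4687 genes, by edgeR's test of the difference between the changes. Of the genes named for that difference, the change from 72 to 96 h minus that of the day before was 5.29 for Rsad2 and −2.67 for Prg2 on the log2 scale, and minus that of the day after it was 7.24 for Acod1 and −1.66 for Cpa3. Each of these 4 passed the test of the difference.

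The 4 libraries of a treatment that the labels call R07, 1 a time, enter no comparison above. In the R07 library at 72 h, 39 of the 46 interferon-stimulated genes lay above both 0 h libraries of the withdrawal course, against 48% of the 14615 genes tested. All 46 lay below both 96 h libraries of that course, against 44.1% of all genes. At 12, 36 and 120 h of R07 the count above both 0 h libraries was 37, 41 and 36, against 44.7%, 47.5% and 46.9% of all genes. With 1 library a time there is no test, and what the R07 treatment is was not analysed here.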

How the results depend on the processing

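Against 7846 genes called at 96 h over 72 h, RLE scaling called 7863, no filter on low counts 7646, DESeq2 7692 and a fit of only the compared libraries 6790, and leaving out a library gave 5832 (without 72 h library B) to 7361. The labels do not say that the column letters pair the libraries, and the A minus B differences at 72 and 96 h correlated at −0.04 across genes. Each time's difference correlated with the mean of the other times at −0.37 (36 h) to 0.62 (72 h), positive at 7 of 10 times, so the letters were not taken as pairs. With a replicate block on the letter 7855 genes were called. The split by direction moved with the scaling: 3976 higher and 3870 lower in the main fit, 4285 and 3578 with RLE scaling, and 4173 and 3519 with DESeq2. The shares of all genes that list counts are read against shift with it. The count of genes differing from the day before (1974) was 1141 with only the compared libraries and 813 to 2378 with a library left out; for the day after (4687) it was 3454 to 4772 with a library left out and otherwise stayed within 1.5 times. The cause was not tested, beyond fewer libraries in each fit. Of 269 called genes named, 247 kept their call and direction under all 9 alternatives. Lyz2, which has almost no reads, ranged from −0.27 to 4.42 on the log2 scale with a library left out, and was negative when 72 h library B (−0.27) or 96 h library A (−0.26) was dropped. Of 98 list counts, 84 stayed within 1.5 times under all 9.

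With 2 libraries a time, the standard errors and p-values rest on the spread between libraries pooled over all 10 times. That spread was widest at 96 h, with a chi-square of 61.28 per gene, against 31.84 at 72 h. The pooled value is therefore too small for the 96 h libraries taken over all genes. The fit of only the compared libraries called 6790 genes, against 7846 in the main fit. That fit also holds fewer libraries, and the part of the wider spread in the drop was not tested.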
